A study of Mus musculus with 2 samples.

Results

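The nuclear-encoded subunits of the oxidative phosphorylation complexes were compared between pancreatic islets of wild-type mice and of PERK knockout mice, both 2 days old. Members were the genes of the array whose probe sets carry a single gene symbol that begins with Nduf, Uqcr, Atp5 or Cox4 to Cox8, or that is Sdha, Sdhb, Sdhc or Sdhd. The rule found 84 genes with 156 probe sets, of 12393 named genes and 22690 probe sets in all. Of these, 78 encode subunits of complexes I to V. The other 6 are 5 assembly factors of complex I and Cox7a2l, a factor of respiratory supercomplexes. Ndufa4 was counted in complex IV, where its protein resides.

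The study measured 2 Affymetrix mouse 430A arrays, 1 of wild-type and 1 of knockout islets, hybridised with biotin-labelled cRNA from islets isolated with collagenase P. PERK, encoded by Eif2ak3, sits in the endoplasmic reticulum membrane and slows translation, through eIF2 alpha, when proteins misfold. Wild-type islets were labelled as of mixed strain and mixed gender. The knockout label gives the age alone, with no strain or sex. The number of pups behind each preparation and the deleted exons are not stated in the labels. A single array per genotype gives neither a replicate spread nor a test, so every value describes these 2 preparations, and the number of arrays limits its precision.

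Oxidative phosphorylation couples the oxidation of NADH and succinate to ATP synthesis at the inner mitochondrial membrane. Complex I (NADH dehydrogenase) and complex II (succinate dehydrogenase) pass electrons to ubiquinone, complex III passes them to cytochrome c, complex IV (cytochrome c oxidase) passes them to oxygen, and complex V (ATP synthase) uses the proton gradient that results. In beta cells the ATP made from glucose closes potassium channels and so triggers insulin release, which makes these complexes part of glucose sensing.

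A signal is the deposited intensity of a probe set in arbitrary units. The value of a gene is that of its probe set with the highest mean signal, and a gene was called measured where it lay above a floor of 39.8 on both arrays. By this criterion 74 of the 78 subunits were measured, Cox6a2 was above the floor in the wild type alone, and Cox7a1, Cox7c and Cox8b were under it on both arrays. Ratios are log2 knockout over wild type, with equality at 0, so a negative value is lower in the knockout. Because most subunits are bright, they are set beside both all 8133 measured genes and the 3099 bright genes, those whose brighter array reached 235.5. Of the 74 measured subunits 70 were bright. The median wild-type signal of these 70 was 1347, against 423.5 for the bright genes. The bright genes are thus closer to the subunits in signal than all genes are, but not matched to them. The measure of error was the SD per probe set, from the 2 brightest measured probe sets of a gene. It is the SD of their difference over genes, divided by the square root of 2. Both read the same 2 arrays, so it holds no variation between animals, preparations or arrays. It was 0.26 on the log2 scale over all 2597 genes with 2 measured probe sets. The SD was 0.28 in the 1131 of these genes that were not bright, and 0.22 in the 39 subunits.

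Of the defining islet markers, Ins2 had signals of 5652 (wild type) and 6163 (knockout) and Gcg (glucagon) had 5662 (wild type) and 5718 (knockout). Cela3b, an enzyme of acinar cells, was also bright on both arrays, at 7279 (wild type) and 7119 (knockout). Eif2ak3, the targeted gene, had 118 (wild type) and 58.7 (knockout), 2.01-fold lower on the 1 of its 3 probe sets above the floor. All 8 immune markers were higher in the knockout (6 measured on both arrays, with a median log2 ratio of 0.94, and 2 above the floor only there), and their summed signal was 701 (wild type) and 2448 (knockout). Of 6 beta cell markers 5 were below equality (median -0.46), with sums of 16479 and 14832. All 5 alpha and delta cell markers were above equality (median 0.06), with Irx2 at 0.61 and Hhex at 0.61, and the others, among the brightest signals of the arrays, at most 0.06. The median was 0.02 for acinar, -0.02 for mesenchymal and -0.10 for endothelial markers. No marker of these lists was at 0. In RNA of whole islet preparations, fewer cells of a type and less RNA per cell cannot be told apart, and the part of these differences in the subunit ratios was not tested. Control probe sets at the 3' and 5' ends, whose quotient reflects how complete the labelled RNA was, gave 1.61 (wild type) and 2.01 (knockout) for beta-actin, and 1.01 and 0.867 for Gapdh.

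Subunit transcripts of all 5 complexes had nearly the same signals in both genotypes, with a small tilt towards lower values in the knockout. The median log2 ratio was -0.06 over the 74 measured subunits, against 0.03 over all measured genes and -0.01 over bright genes. By complex it was -0.04 for complex I (33 genes), -0.08 for complex II (4 genes), -0.03 for complex III (8 genes), -0.07 for complex IV (12 genes) and -0.10 for complex V (17 genes). Of the measured subunits 46 (62.2%) were below equality, where 45.1% of all measured genes and 52.1% of bright genes were. Of the 70 bright subunits 46 were below equality, with a median of -0.07.

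Large differences were no more frequent among the subunits than elsewhere. No measured subunit was 2-fold apart in either direction. In the background 0.652% of all measured genes and 0.904% of bright genes were at least 2-fold lower, and 0.516% and 0.419% were at least 2-fold higher. Past a log2 difference of 0.32, the smaller limit used here, 7 subunits (9.46%) were lower: Sdha, Ndufb7, Uqcr10, Uqcrq, Ndufc1, Ndufa4 and Atp5o. That share is close to the background of 10.9% of all measured genes and 11.5% of bright genes. At the same limit 3 subunits (4.05%) were higher, Uqcrb, Cox6b2 and Cox8c, against 16.5% of all measured genes and 10.9% of bright genes. The SD of the log2 ratios over genes was 0.23 for the subunits and 0.32 for bright genes, so the subunits varied less among themselves.

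**Figure D1:**
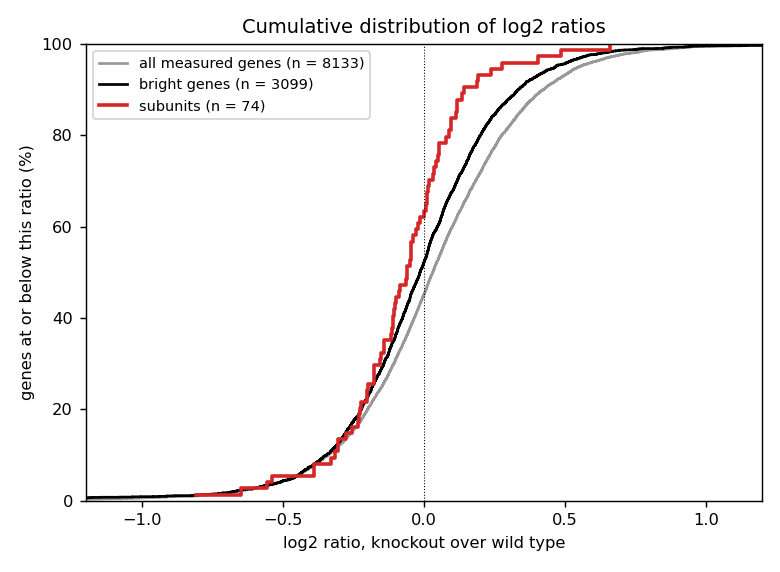
Cumulative share of genes (%) against the log2 ratio of knockout over wild type for the 74 measured subunits, the 3099 bright genes and all 8133 measured genes. At a ratio of 0 the subunits stand at 62.2%, the bright genes at 52.1% and all measured genes at 45.1%.

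**Figure D2:**
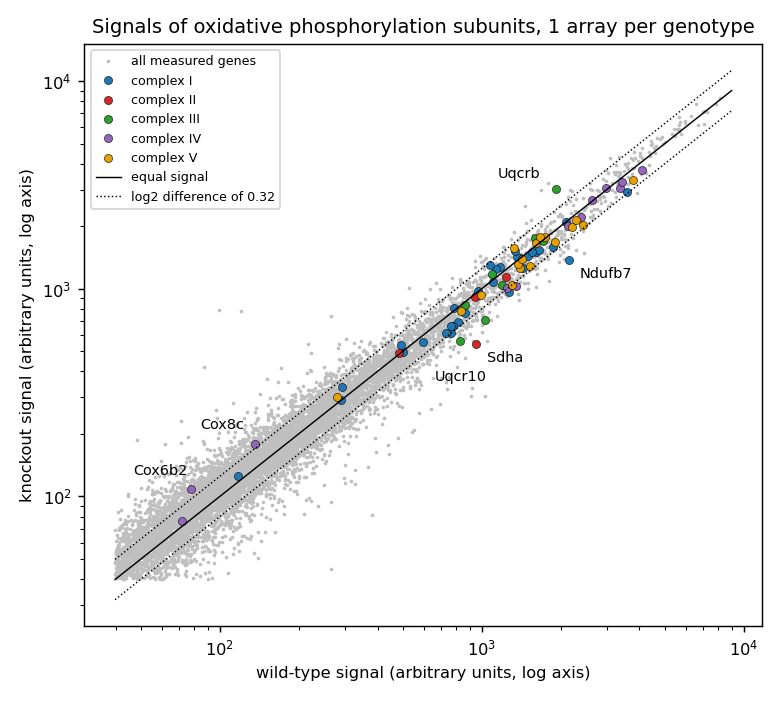
Knockout against wild-type signal (arbitrary units, log axes) of each measured subunit, coloured by complex, over all measured genes in grey, with lines of equal signal and of a log2 difference of 0.32. Of the 74 subunits 7 lie on or below the lower dotted line and 3 on or above the upper one.

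Complex I takes electrons from NADH at the tip of its matrix arm (the N module), hands them to ubiquinone (the Q module) and pumps protons in its membrane arm. All 33 of its subunits on the array were measured, 19 were below equality, and the ratios ran from -0.65 to 0.28. Of 8 subunits of the N module 7 were below equality, with a median of -0.13. Ndufv1, which binds NADH and the flavin cofactor, had signals of 765 (wild type) and 614 (knockout), a log2 ratio of -0.316, just short of the limit. Its 2 other probe sets both gave about -0.10, so all 3 were lower. The iron-sulphur protein genes Ndufv2 (1438 to 1252, log2 -0.20) and Ndufs1 (289 to 291, 0.01) differed in direction, and a further probe set of Ndufv2 gave 0.08. The accessory subunits were Ndufv3 at -0.23, Ndufa2 at -0.20, Ndufa7 at -0.06, Ndufa12 at -0.05 and Ndufs4 at -0.01, none beyond the SD per probe set over all genes. The third probe set of Ndufs4 gave 0.35, and the dimmest of 5 for Ndufa7 gave 0.61.

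The Q module was close to equality, with a median of -0.04 over 7 subunits and 5 of them below. Ndufs7 and Ndufs8, which carry iron-sulphur clusters that lead to ubiquinone, had log2 ratios of 0.05 and -0.04. All 6 probe sets of Ndufs8 were measured, and they spread from -0.50 to 0.29. Ndufab1, the mitochondrial acyl carrier protein, went from 812 to 694 (-0.23) and on its other measured probe set from 236 to 182 (-0.38), lower on both. Ndufa9 had -0.18, Ndufa5 -0.11 (-0.22 on its second probe set), and Ndufs3 -0.03. Ndufa6, which helps to shape the ubiquinone site, was the highest of the module at 1341 (wild type) and 1527 (knockout) (0.19).

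The membrane arm held both the lowest and the highest ratios of complex I. Its 18 subunits stood 7 below and 11 above equality, and their median (0.01) and mean (-0.05) differ in sign. Ndufb7, an accessory subunit on the intermembrane space side, had signals of 2158 (wild type) and 1377 (knockout), 1.57-fold lower. The second probe set of Ndufb7 went from 781 to 736, a log2 ratio of -0.09, so the size of its difference rests on 1 probe set. Ndufc1 was lower on both of its probe sets, from 1270.1 to 969 (-0.39) and from 718 to 582 (-0.30). Ndufa1, a small subunit needed for assembly of the arm, had 3601 (wild type) and 2916 (knockout) (-0.30) on its only probe set, Ndufb6 had -0.26 and -0.13, and Ndufb10 had -0.22. These 5 genes lay on the lower side.

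The core subunits of this arm are encoded by mitochondrial DNA and are not members, so accessory subunits stand for the arm here. At the upper end were Ndufc2 (1072 to 1299, 0.28), Ndufs5 (294 to 335, 0.19) and Ndufa8 (1132 to 1243, 0.14). None of the 3 reached the limit of 0.32. The other probe set of Ndufc2 gave -0.15, on the other side of equality. So did a probe set outside the rule that names Ndufs5 with Ndufs5-ps, from 611 to 463 (-0.40). Ndufa10 (0.12), Ndufb5 (0.12), Ndufb1 (0.10), Ndufa3 (0.05), Ndufa13 (0.05), Ndufb3 (0.01), Ndufb2 (0.01) and Ndufb11 (0.00) were at or just above equality, and Ndufb8 and Ndufb9 were both at -0.11. Among these, Ndufb2 departed most on its second probe set, with 684 to 468 (-0.55) against 1405 to 1411.

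**Figure D3:**
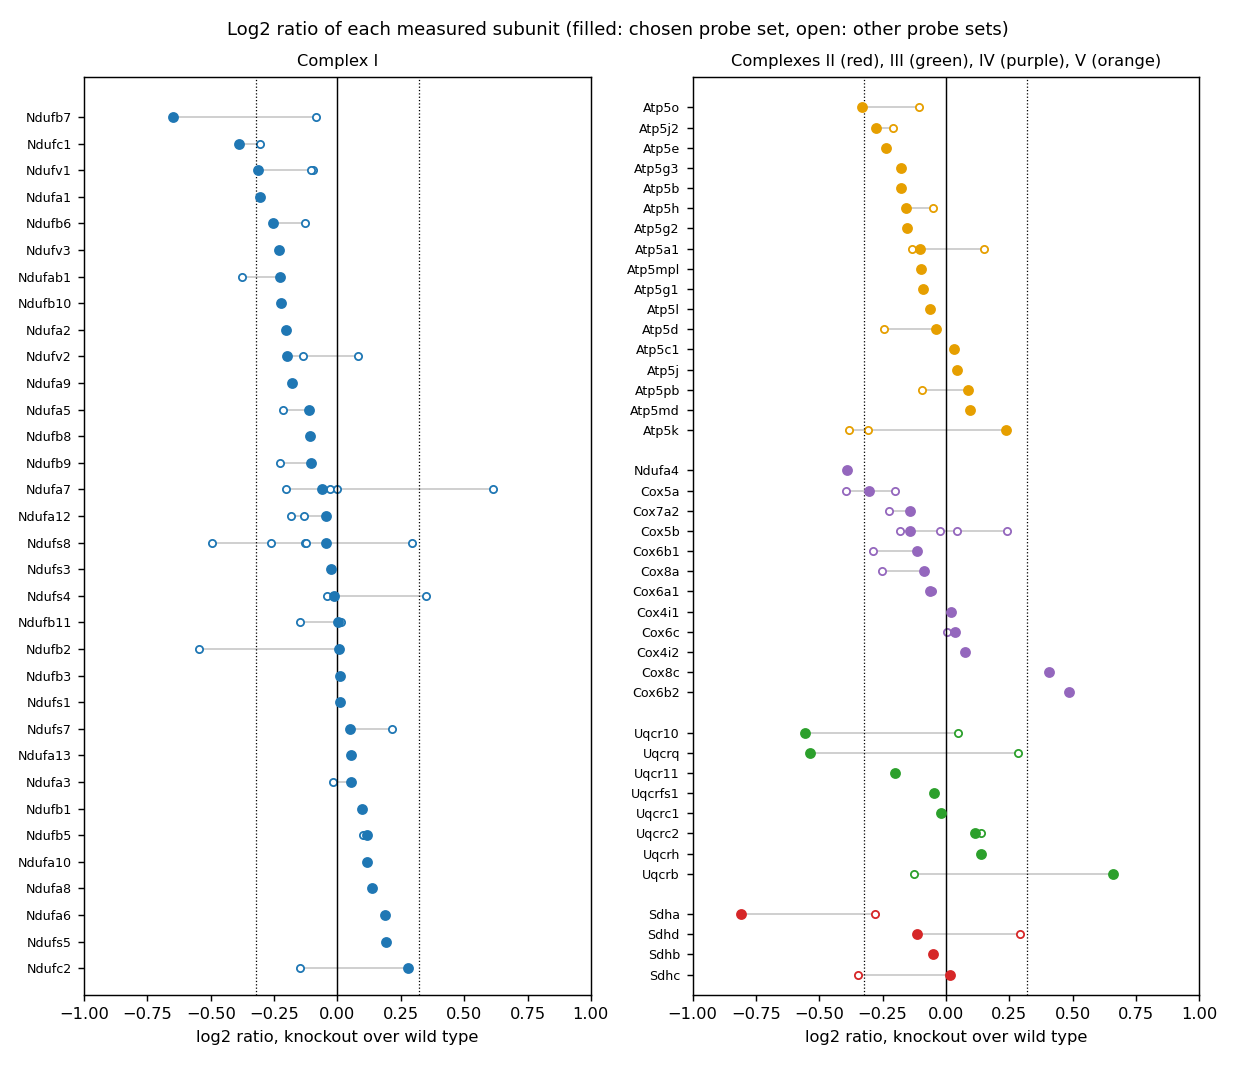
Log2 ratio of knockout over wild type for each measured subunit, complex I on the left and complexes II to V on the right, with filled points for the probe set used and open points for other measured probe sets of the gene. Dotted lines mark a log2 difference of 0.32, and for Uqcrb, Uqcrq and Uqcr10 the open point lies on the other side of equality from the filled one.

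Complex II, the only respiratory complex with all its subunits encoded in the nucleus, held the lowest ratio of all measured members. Sdha, its flavoprotein that oxidises succinate, had signals of 948 (wild type) and 542 (knockout), 1.75-fold lower (log2 -0.81). Its second probe set went from 261 to 215 (-0.28), so Sdha was lower on both, on average by a log2 ratio of -0.54 ± 0.37 (SD over 2 probe sets). The iron-sulphur subunit Sdhb was nearly level at 942 to 909.6 (-0.05). The membrane anchors Sdhc (483 to 488, 0.01) and Sdhd (1236 to 1143, -0.11) each had a second probe set on the other side of equality, at -0.35 and 0.29. Sdhc and Sdhd therefore showed no direction that both of their probe sets shared with Sdha, and Sdhb has only 1 probe set.

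Complex III showed the widest spread, with ratios from -0.56 to 0.66 over 8 subunits and an SD of 0.39. The core subunits Uqcrc1 and Uqcrc2 were close to equality. Uqcrc1 had 1719 (wild type) and 1695 (knockout) (-0.02) and Uqcrc2 had 1091 (wild type) and 1180.5 (knockout) (0.11, and 0.14 on its second probe set). Cytochrome c1 (Cyc1), also a subunit of this complex, is not taken in by the rule and is not among the 8. It had 939 (wild type) and 847 (knockout) (-0.15) on 1 probe set. Uqcrfs1, the Rieske iron-sulphur protein, had 867 (wild type) and 839 (knockout) (-0.05). The extremes were small accessory subunits. Uqcr10 went from 824 to 560.2 (-0.56), Uqcrq, a ubiquinone-binding protein, from 1027 to 708 (-0.54), and Uqcrb, also at the ubiquinone site, from 1920.4 to 3033 (0.66, 1.58-fold higher). All 3 changed sides on their second probe set, with 109.7 to 113 (0.05), 41.5 to 50.6 (0.29) and 862 to 789.9 (-0.13). The second probe sets of Uqcr10 and Uqcrq were dim, whereas that of Uqcrb was bright on both arrays. Uqcr11 (1198 to 1041, -0.20) and the hinge protein Uqcrh (1594 to 1756, 0.14) had 1 probe set each.

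Complex IV subunits that are found in every tissue were level or slightly lower. Cox4i1, the regulatory subunit, had 2648 (wild type) and 2684 (knockout) (0.02). Cox5a, which binds the inner side of the catalytic core, was lower on all 3 probe sets, from 1251 to 1012 (-0.31), 1042 to 793 (-0.39) and 272 to 237 (-0.20), on average -0.30 ± 0.10 (SD over 3 probe sets). Ndufa4 went from 1353 to 1034 (-0.39) on a single probe set. Cox7a2 (4096 to 3714, -0.14, then -0.22) and Cox6b1 (2400.0 to 2215, -0.12, then -0.29) were below equality on each measured probe set. So were Cox8a (2134 to 2012, -0.08, then -0.25) and Cox6a1 (3419 to 3272, -0.06 on both). Cox6c had 0.04 and 0.00, and the 5 measured probe sets of Cox5b spread from -0.18 to 0.24 with 3367 to 3054 (-0.14) on its brightest. Of the 7 complex IV genes with several measured probe sets, 5 were lower on each and 1 was higher on each.

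Several complex IV subunits come in tissue isoforms, and those known from other tissues were not bright here. The heart and skeletal muscle isoforms Cox7a1 and Cox8b were under the floor on both arrays, at 21.5 to 13.9 and 4.9 to 5. Cox6a2, the muscle counterpart of Cox6a1, had 77.1 (wild type) and 38.4 (knockout), at least 1.94-fold lower when the knockout is set at the floor, on 1 probe set. Of 13 muscle and brown fat markers on the array 9 were under the floor on both arrays and 2 were measured, Mb (myoglobin) from 59.8 to 41.9 and Acta1 from 46.1 to 42.2, and the summed signal of the list was 236.5 (wild type) and 247 (knockout). That sum includes Cidea, a brown fat gene, at 4.7 to 39.9, a larger difference than that of the sums and in the opposite direction to Mb, Acta1, Actc1 (42.2 to 38.4) and Ckm (25.4 to 18.9). None of these markers was at 0, and their part in the Cox6a2 value was not tested. The isoforms known from testis, Cox6b2 (77.5 to 109, 0.49) and Cox8c (136 to 179.8, 0.41), were the higher members of complex IV, and the lung isoform Cox4i2 had 71.9 to 75.8 (0.08). Each has a single probe set, and the SD per probe set of genes that were not bright was 0.28. Cox7c, a subunit of the enzyme in every tissue, was at 14.2 to 17.7, so its probe sets here gave no level.

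Complex V had the lowest median of the 5 complexes in the main processing, and its members varied least, with an SD of 0.15. The rank was slight, at -0.10 against -0.08 for complex II. With quantile normalization complex IV was lower (-0.11, against -0.06 for complex V), and on second probe sets complexes II and IV were lower. Of 17 subunits 12 were below equality, and all but Atp5o lay within the limit of 0.32. In the catalytic F1 head and its stalk, Atp5b, the beta subunit that carries the catalytic sites, had 1908 (wild type) and 1688 (knockout) (-0.18), and the alpha subunit Atp5a1 had 2300.0 (wild type) and 2142 (knockout) (-0.10, with -0.13 and 0.15 on its other probe sets). The stalk subunits were Atp5e (1522 to 1294) at -0.23, Atp5d at -0.04 (-0.24 on the second probe set) and Atp5c1 at 0.03. Thus 4 of the 5 were below equality, by at most 0.23 on the log2 scale.

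The membrane sector and peripheral stalk of complex V had a median of -0.09 over 12 subunits, with 8 below equality. The genes Atp5g1, Atp5g2 and Atp5g3 encode the same c subunit of the rotor ring with different import sequences, and all 3 were slightly lower: 994 to 935 (-0.09), 1395 to 1254 (-0.15) and 3789 to 3351 (-0.18). Atp5o, the protein that joins the stalk to F1, went from 1305 to 1039 (-0.33, and -0.11 on its second probe set), and Atp5j2 from 2442 to 2017 (-0.28, then -0.21). Both were lower on each of 2 probe sets. Atp5h had -0.16, Atp5mpl -0.10, Atp5l -0.06, Atp5j 0.04, Atp5pb 0.09 (1668 to 1772) and Atp5md 0.09 (281 to 299.7). Atp5k, a subunit of ATP synthase dimers, was highest at 1329.6 to 1567 (0.24), but its 2 other probe sets went from 1375 to 1112 (-0.31) and from 890.2 to 682 (-0.38).

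The second probe sets bear on which of these values repeat. Of the 39 subunits with 2 measured probe sets, 29 (74.4%) had both on the same side of equality, 24 below and 5 above. Among all genes with 2 measured probe sets 61.2% did so, and among bright genes 63.2%. The size of the ratio did not repeat: across the 39 subunits the 2 ratios had a Pearson r of 0.03 and a Spearman rho of 0.13, a description across genes that share the same 2 arrays. Over all genes with 2 measured probe sets r was 0.34 (rho 0.32), and over bright genes 0.41 (rho 0.40). The ratios on the second probe set had an SD of 0.18 in subunits, against 0.32 in all genes and 0.31 in bright genes. The r values were not adjusted for this narrower range. Of the 6 subunits lower by at least 0.32 on the brightest of 2 measured probe sets, 0 were so on the second and 4 were below equality on it. Among bright genes 60 of 186 were again past that limit. The tilt of the subunits as a group appeared on both probe sets, with medians of -0.10 and -0.13 over these 39 genes.

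Counting every measured probe set in place of 1 per gene gave the same picture. Of 131 measured probe sets of subunits, 88 (67.2%) were below equality, against 44.8% of 11893 measured probe sets of all genes and 49.8% of those of bright genes. The share was 66.7% in complex I, 65.2% in complex IV and 76.9% in complex V, and 6 of 12 in complex III. On all of their measured probe sets, 18 of 39 subunits (46.2%) were lower and 4 (10.3%) were higher, while for bright genes these shares were 26.3% and 25.9%. Probe sets of a gene can share target sequence, so they are not independent measurements.

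**Figure D4:**
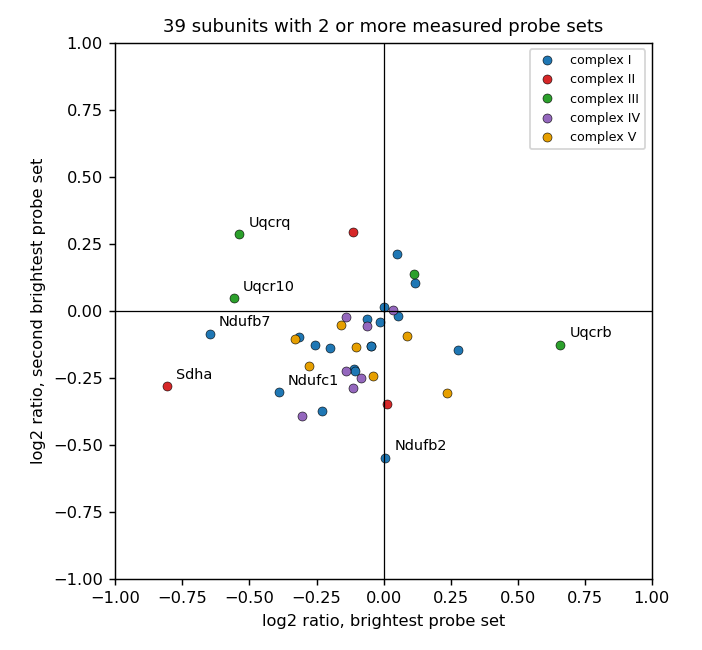
Log2 ratio (knockout over wild type) on the second brightest against the brightest measured probe set for 39 subunits, coloured by complex. Both ratios are below 0 for 24 genes and above 0 for 5, and the points show little trend (r = 0.03).

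The 6 members that are not subunits showed no shared direction. Of the complex I assembly factors, Ndufaf4 had 110.4 to 76.9 (-0.52) but 0.35 on its second probe set, and Ndufaf1 had 86.1 to 109 (0.34). The others were Ndufaf7 at -0.20, Ndufaf3 at -0.08 and Ndufaf5 at 0.14. Cox7a2l, which helps to join complexes III and IV, had 1292 to 1415 (0.13).

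Lists of textbook members of the pathway that the rule does not take in differed little as groups. Of 13 measured electron carriers and coenzyme Q enzymes 10 were below equality, with a median of -0.07. Cycs (cytochrome c) was lower on all 3 probe sets, at 1358 to 1112 (-0.29), -0.38 and -0.34 by log2 ratio, and Etfb, of the electron transfer flavoprotein, was at -0.15. Coq6, a ubiquinone synthesis enzyme, was the single 2-fold member at 44.5 to 101 (2.26-fold higher), with a wild-type signal near the floor and no other probe set. The 16 measured assembly factors of complexes II to V had a median of 0.07, with 2 higher past the limit of 0.32 (Bcs1l 82.3 to 146 and Sco2 56.2 to 91.7) and 2 lower. The lower ones were Cox18 (272 to 193) and Uqcc2, which went from 1734 to 1387 (-0.32, or 1.2503-fold, and -0.31 on its second probe set). Cox17, a copper chaperone, was at 0.12.

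ATP synthase partners and carriers had a median of -0.09 over 8 measured genes, 7 of them below equality. The outer membrane channels Vdac1 (1381 to 946, -0.55) and Vdac3 (824 to 631, -0.38) were lower past the limit of 0.32, though the other probe sets of Vdac1 spread from -0.76 to 0.36. The phosphate carrier Slc25a3 had -0.09, and the adenine nucleotide carrier Slc25a5 was higher on each of its probe sets, from 2295 to 2705 (0.24).

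The regulators of mitochondrial biogenesis had a median of -0.04 over 14 measured genes. The coactivators Ppargc1a and Ppargc1b were under the floor on both arrays. The transcription factor Nrf1 had 62.5 to 50 (-0.32, or 1.2499-fold, just short of the limit, and -0.33 on its second probe set). Gabpa had 133 to 147 (0.14), Yy1 437 to 479.8 (0.14) and Tfam 336 to 298 (-0.17). The DNA-binding protein Ssbp1, also bright, was at 0.27. Esrra (86.5 to 124, 0.51), the RNA-binding protein Lrpprc (291 to 384, 0.40) and the mitochondrial DNA polymerase Polg (74.3 to 95.7, 0.37) were higher past the limit of 0.32. These regulators thus pointed both ways. Mitochondrial import and protease genes had a median of -0.02 over 20 measured genes, with Timm17b (-0.46), Timm23 (-0.33) and Yme1l1 (-0.33) lower past the limit and none higher. The other probe sets of Timm17b and Yme1l1 were above equality. Tomm20 was at 0.06 and Hspd1 at -0.05.

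Promoters of the subunit genes hold known motifs of mitochondrial biogenesis factors. In the RefSeq windows of GRCm38.p6, from 250 bases before to 50 after the start, 64 of the 78 subunits had a promoter. On either strand, the NRF1 core GCATGCGC was present in 9 of the 64 (14.1%), against 2.71% of all 32851 promoters and 6.36% of the 6606 measured genes with one. The YY1 motif AAGATGGC was also in 9 (14.1%), against 2.75% and 5.53%. The GABPA motif CCGGAAGT was in 5 (7.81%, against 3.89% and 9.49%) and the ESRRA motif TCAAGGTCA in 2 (3.13%, against 0.423% and 0.363%). Any of these was in 24 of 64 (37.5%), against 9.25% of all promoters and 20.2% of the measured genes with one. Measured subunits with any of the motifs had a median log2 ratio of -0.06 (24 genes) and those without had -0.11 (37 genes). Among all measured genes the medians were 0.01 with and 0.03 without a motif. In the subunit promoters no match of one motif overlapped that of another. Of the 9 YY1 matches 7 lay after the start, between positions 22 and 45. A match describes these letters only.

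The 100 bases just before the start are shown for 1 subunit each of complexes I, II and III and 3 of complex V. They were chosen with their ratios known, and motif letters are in capitals. Only the NRF1 motif is set beside both directions of ratio. GABPA and ESRRA are each shown in a single gene that was lower, and the GABPA stretch of Uqcrh (0.14) is not shown. NRF1 letters stand in the first 4, GABPA letters in the fifth and ESRRA letters, read on the other strand, in the last. Uqcr11, the fifth, also has an NRF1 match from position -4 to 3, which runs past the printed bases and is not in capitals. In the sequences of Atp5g2 and Atp5k the motif is present on both strands, as overlapping matches.
Ndufa6, chr15:82354292-82354391 (- strand): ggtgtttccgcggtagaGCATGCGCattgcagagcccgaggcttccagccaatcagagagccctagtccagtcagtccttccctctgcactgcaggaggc
Sdhb, chr4:140961171-140961270 (+ strand): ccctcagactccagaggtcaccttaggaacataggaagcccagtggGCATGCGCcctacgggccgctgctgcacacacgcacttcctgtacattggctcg
Atp5g2, chr15:102671048-102671147 (- strand): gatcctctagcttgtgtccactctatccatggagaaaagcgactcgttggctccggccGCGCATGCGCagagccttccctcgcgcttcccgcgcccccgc
Atp5k, chr5:108434400-108434499 (- strand): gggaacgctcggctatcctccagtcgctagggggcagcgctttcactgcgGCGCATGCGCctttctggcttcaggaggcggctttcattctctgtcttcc
Uqcr11, chr10:80406822-80406921 (- strand): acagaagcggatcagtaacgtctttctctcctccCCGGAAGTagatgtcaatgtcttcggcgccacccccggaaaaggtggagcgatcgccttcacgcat
Atp5g3, chr2:73911327-73911426 (- strand): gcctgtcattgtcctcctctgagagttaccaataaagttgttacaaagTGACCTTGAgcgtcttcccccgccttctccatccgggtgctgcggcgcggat
The log2 ratios of these genes were 0.19 for Ndufa6, -0.05 for Sdhb, -0.15 for Atp5g2, 0.24 for Atp5k, -0.20 for Uqcr11 and -0.18 for Atp5g3. The direction of Atp5k rests on its brightest probe set, since the others gave -0.31 and -0.38.

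The tilt of the subunits kept its direction under the 11 processing alternatives tried, and its size varied with the scaling and the probe set used. Not all of these alternatives could reverse it. The intensities as deposited nearly equal the main values, since the scaling factor was 1. Median centring subtracts the median of all measured genes (0.03), which can only lower the subunit median. The lower and higher floors kept 75 and 72 subunits, and every gene of the rule gave 80 genes. These settings mostly reuse the main ratios, so they could hardly change the direction. The median over all subunits ran from -0.02 with quantile normalization, where bright genes stood at 0.00, to -0.13 on the second brightest probe sets, where bright genes stood at 0.01. The medians of complexes IV and V stayed below 0 throughout, those of complex III became 0.02 with quantile normalization, 0.09 on second probe sets and 0.04 without probe sets that can bind several transcripts, and that of complex I became 0.00 with quantile normalization.

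**Figure D5:**
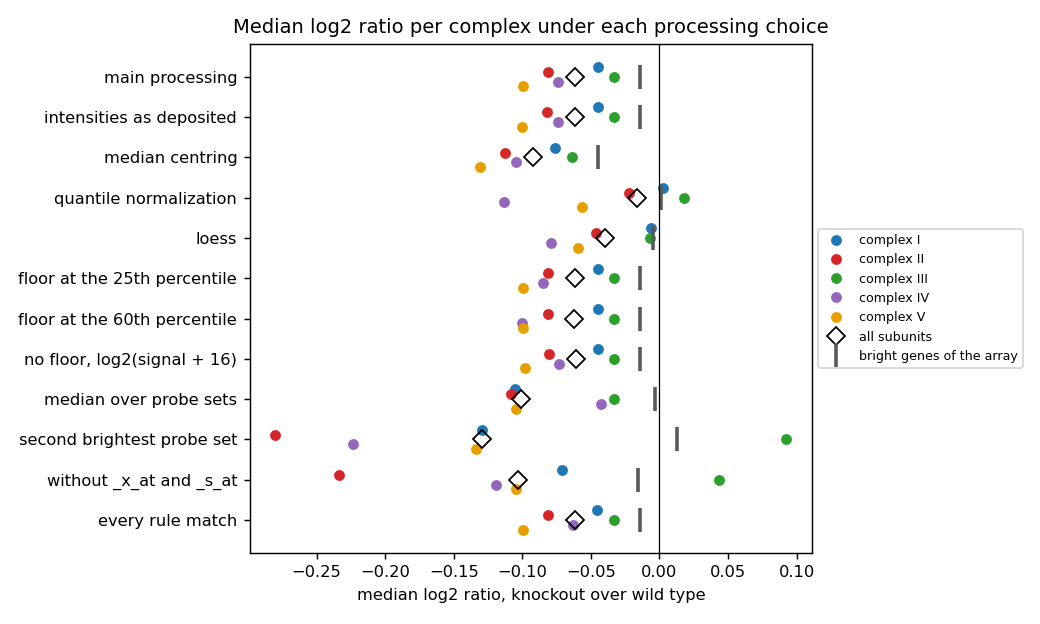
Median log2 ratio (knockout over wild type) of each complex, of all subunits and of the bright genes of the array under the main processing and 11 alternatives. The median of all subunits lies left of that of bright genes in every row, and complex III crosses 0 in 3 of them.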

How the data were processed

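The authors deposited 1 linear signal intensity per probe set and array. Per the submitters' processing notes the tool was GCOS 1.02; no background correction, summary method or detection call is stated in the labels. The 2% trimmed mean of the deposited intensities was 149.7 on each array. Here the knockout array was rescaled to the trimmed mean of the wild type, a floor was laid at the 40th percentile of the pooled signals (39.8), and log2 ratios were taken with Python 3.11.15 and pandas 2.3.3.

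Probe sets were named from the platform annotation: 20380 had 1 symbol, 691 several and 1555 none, and 64 controls were left out. All 84 member symbols matched RefSeq of GRCm38.p6. For 11 members that table names a pseudogene, whose transcripts a probe set could also detect. Of the subunits 35 had 1 probe set and 43 had several. Members, complexes, motifs and lists were chosen with earlier results of these data known. Named in full were the 4 lowest, 3 highest and 2 brightest subunits of each complex, tissue isoforms, c subunit genes and bounds. Of other lists the 2 brightest and up to 3 members past the 0.32 limit each way were named. Nrf1, Gabpa, Tfam, Ppargc1a, Ppargc1b, Gcg, Cyc1, Cidea, Actc1 and Ckm were named outside the rule, once their values had been seen. Scripts were checked on simulated data. Alternatives were 4 other scalings, a lower floor (25th percentile) and a higher one (60th), no floor with a pseudocount of 16, other choices of probe set, and every gene of the rule.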

Additional observations from a re-analysis of the deposited data

How the results depend on the processing

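The median of all subunits was -0.016 with quantile normalization, -0.10 both for the median over probe sets and when probe set types that can bind several transcripts (_x_at, _s_at) were left out, and -0.13 on second brightest probe sets (39 genes). Complex I had -0.11 (median over probe sets) and -0.13 (second), and on second probe sets complex II had -0.28 and complex IV -0.22. Past the limit of 0.32, 4 subunits were lower with either of these choices, and 0 were higher on second probe sets. Cox6a2 made the count of 2-fold lower subunits 1 with the floor at the 25th percentile and 1 without the shared types, since the lower floor there lets it count as measured. Among members past that limit, signs turned on second probe sets for Ndufaf4 (0.35), Uqcr10 (0.048), Uqcrb (-0.13) and Uqcrq (0.29), and for Uqcrq without the shared types (0.28). Counting smaller ratios too, 10 of 39 subunits changed sign on second probe sets, among them Atp5k (-0.31), Sdhc (-0.35), Ndufb2 (-0.55), Ndufc2 (-0.15) and Sdhd (0.29), and without the shared types Sdhc (-0.35) and Ndufc2 (-0.15) were among those that did. The cause of the other differences was not tested. Under the other scalings, floors and the pseudocount, the other counts stayed within 1.5 times, and each gene measured in the main setting moved by less than the probe set SD. No paired analysis was possible because each genotype has 1 array, and for the same reason no replicate could be left out. The number of arrays limits the precision, and dim genes disagree more between probe sets than bright ones.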

Other observations

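Probe sets that name several genes were outside the rule, and 7 of the 8 that include a subunit symbol carried signal above the floor on at least 1 array. That of Ndufa11 and Ndufa11b went from 1401 (wild type) to 1098 (knockout), a log2 ratio of -0.35. Both probe sets of Ndufb4 with Ndufb4b and Ndufb4c were below equality, from 1020.2 to 801 (-0.35) and from 549.9 to 497 (-0.15). The probe set of Ndufs5 and Ndufs5-ps went from 611 to 463 (-0.40), whereas the probe set naming Ndufs5 alone gave 0.19. Those of Ndufab1 and Ndufab1-ps (721 to 642, -0.17) and of Ndufs6 and Ndufs6b (882 to 840.3, -0.07) were also below equality. The probe set shared by Ndufb2 and Adck2 was above the floor in the wild type alone.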
